A study of Mus musculus with 6 samples.

Results

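The enzymes that turn arachidonic acid into prostaglandins and leukotrienes were followed in mouse granulocytes as 10 listed genes, Ptgs1, Ptgs2, Alox5, Alox5ap, Alox15, Lta4h, Ltc4s, Ptges, Pla2g4a and Hpgds. They were found as the probe sets annotated to exactly 1 of these symbols, which gave 9 genes with 1 probe set each, out of 19937 genes measured. Ptgs1, the gene of the constitutive cyclooxygenase, had no such probe set and is not analysed here. RNA of granulocytes of the strain C57BL/6J was hybridised to 6 arrays (Affymetrix Mouse Gene 1.0 ST), 3 from cells labelled caffeine+ and 3 from cells labelled caffeine-. By the treatment protocol that all the samples carry, the cells first had 15 mM caffeine for 4 hours and were then washed. The caffeine+ cells next spent 4 hours in 2 µg/ml actinomycin D, which blocks transcription, together with caffeine, and the caffeine- cells spent them in actinomycin D alone. Read this way, the caffeine- cells had caffeine before the wash, although they are labelled as not treated with it, and there is no group without actinomycin D. The series asks which transcripts accumulate when nonsense-mediated mRNA decay is inhibited by caffeine. Caffeine also inhibits the phosphodiesterases that break down cyclic AMP. Whether replicates are separate animals, separate cultures or repeats of 1 culture is not labelled, so the p-values rest on array-to-array spread that may be technical.

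Arachidonic acid is held in membrane phospholipids until a phospholipase A2 cuts it free. Cyclooxygenases turn it into prostaglandin H2, from which terminal synthases make prostaglandin E2, prostaglandin D2, prostacyclin or thromboxane. In the other branch 5-lipoxygenase, helped by its activating protein at the nuclear membrane, makes leukotriene A4. That intermediate is hydrolysed to leukotriene B4, a strong attractant of neutrophils, or joined to glutathione as leukotriene C4, a product of mast cells, basophils and eosinophils.

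The values were taken as log2 intensities from their range, and how the authors normalised them is not stated. Being relative, they cannot show a shift in how much mRNA each cell holds. Levels of single genes were compared between groups and never between genes, since probe sets differ in brightness. Summed marker levels add up several probe sets, so the brightest weigh most in them. Only a place above or below the array median was read across probe sets. Log2 differences are caffeine+ minus caffeine-, given ± standard error, from a limma fit to all 19937 genes with p-values adjusted by Benjamini-Hochberg and called under 0.05 (n = 3 arrays per group). The median log2 value of an array lay between 6.49 and 6.60, and arrays of 1 group correlated at r = 0.986 to 0.992 across probe sets, against 0.959 to 0.965 between groups. Of 12 neutrophil markers, all measured, 11 lay above the array median on all 6 arrays, among them the myeloperoxidase gene Mpo. So did 7 of 12 measured markers of eosinophils, basophils and mast cells, and 6 of 11 of monocytes and macrophages.

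Transcripts of both branches moved, and within each branch they moved in opposite directions. Of the 9 measured genes, 2 rose in the caffeine+ cells, Ptgs2 and Lta4h, and 5 fell, Hpgds, Alox5, Ptges, Pla2g4a and Alox5ap, while Alox15 and Ltc4s did not pass the test. Over all genes tested, 16.2% rose and 21.7% fell by the same rule. The median difference of the 9 genes was -0.34, and that of all genes was -0.04. Only Ptgs2 of the 9 changed by at least 2-fold and passed, which 2.63% of all genes did upwards and 3.15% downwards. In each of the 7 genes that passed, the 3 caffeine+ arrays lay wholly above or wholly below the 3 caffeine- arrays. Passing the test already favours such a separation, so it adds no support. Over all genes, 19.5% had every caffeine+ array above every caffeine- array and 26.3% had every one below.

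**Figure D1:**
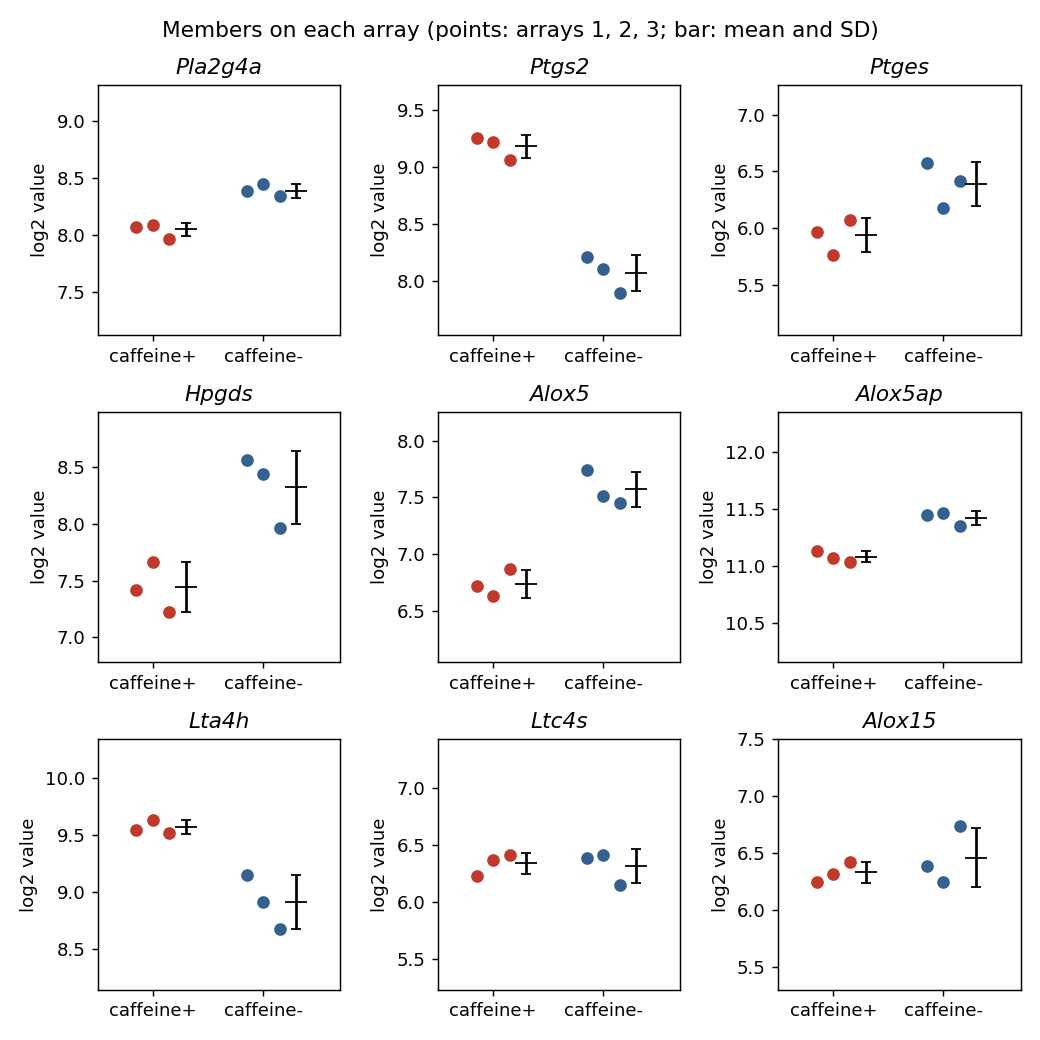
Log2 value of the 9 measured genes on each array, with a y axis of the same length in every panel; points are the 3 caffeine+ arrays (red) and the 3 caffeine- arrays (blue) in the order of their replicate numbers, and the bars beside them give the mean and SD (n = 3). Ptgs2 and Lta4h lie higher in caffeine+ cells, Alox15 and Ltc4s overlap, and the other 5 lie lower.

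Ptgs2 encodes cyclooxygenase-2, the inducible enzyme that commits arachidonic acid to the prostaglandins, and its mRNA is known to be short-lived and inducible through cyclic AMP. Its log2 level was 9.25, 9.22 and 9.06 in the caffeine+ arrays, against 8.21, 8.10 and 7.89 in the caffeine- arrays. The lowest caffeine+ array stood well above the highest caffeine- array. Ptgs2 was 2.16-fold higher in caffeine+ cells (log2 difference 1.11 ± 0.09, limma adjusted p = 7.8e-08).

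The gene next to Ptgs2 in the reference gene order of GRCm38.p6, with no protein-coding gene between them, is Pla2g4a on chromosome 1. Pla2g4a encodes cytosolic phospholipase A2 alpha, which releases arachidonic acid. The caffeine+ arrays gave log2 values of 8.07, 8.09 and 7.97, against 8.39, 8.45 and 8.34 in the caffeine- arrays. The caffeine+ arrays were all lower, so these neighbours, which encode consecutive steps of the pathway, went in opposite directions. Pla2g4a was 1.27-fold lower in caffeine+ cells (log2 difference -0.35 ± 0.08, limma adjusted p = 0.002), with a spread of 0.11 between the arrays of either group.

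Downstream of cyclooxygenase, Ptges and Hpgds, the terminal synthases among the 9 genes, both fell. Ptges encodes microsomal prostaglandin E synthase 1, which is usually induced together with cyclooxygenase-2. On the caffeine+ arrays it read 5.97, 5.77 and 6.07 (log2), against 6.57, 6.18 and 6.42 on the caffeine- arrays. The highest caffeine+ array (6.07) lay close below the lowest caffeine- array (6.18), and Ptges was dim, below the array's own median on all 6 arrays. Ptges was 1.37-fold lower in caffeine+ cells (log2 difference -0.45 ± 0.12, limma adjusted p = 0.0067). Its span in the reference annotation overlaps those of Gm13400 and Gm52550.

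Hpgds encodes haematopoietic prostaglandin D synthase, an enzyme of mast cells and some other blood cells. Its log2 level was 7.42, 7.66 and 7.22 in the caffeine+ arrays, against 8.56, 8.44 and 7.96 in the caffeine- arrays. This was the largest fall among the 9 genes, and also the widest spread within a group, 0.43 in caffeine+ and 0.60 in caffeine- cells. Hpgds was 1.85-fold lower in caffeine+ cells (log2 difference -0.89 ± 0.14, limma adjusted p = 7.8e-05).

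The array signal of a marker list can fall because fewer cells of a type are present or because each holds less RNA, and in bulk samples these cannot be told apart. Over all genes 21.7% fell and 16.2% rose. Among the 12 markers of eosinophils, basophils and mast cells 5 fell and 2 rose, and the median difference was -0.18. Their summed level, as log2 of the sum of linear values, was 12.58 to 12.59 in caffeine+ cells and 13.11 to 13.25 in caffeine- cells. Bright markers weigh most in such a sum, and the brightest here, Prg2, differed by -0.63 ± 0.06 (limma adjusted p = 1.6e-07). The basophil protease gene Mcpt8 differed by -1.52 ± 0.07 and Ms4a2, the gene of the beta chain of the IgE receptor, by -1.19 ± 0.11 (limma adjusted p = 1.7e-10 and 3.9e-07). Ms4a2 lay below the array's own median on 3 of the 6 arrays. Fcer1a, the gene of the alpha chain, lay below it on all 6 and differed by -0.02 ± 0.14 (limma adjusted p = 0.93). The mast cell and progenitor genes Kit and Gata2 differed by 0.28 ± 0.07 and 0.48 ± 0.10 (limma adjusted p = 0.0023 and 0.00079), and Cpa3, a mast cell protease gene, by -0.16 ± 0.07 (limma adjusted p = 0.082), which passed without caffeine- array 3 (0.0035). None of the markers is listed at 0, and the table gives no detection call. The part of these cells in the fall of Hpgds was not tested.

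In the leukotriene branch the first enzyme and its activating protein fell and the hydrolase that makes leukotriene B4 rose. Alox5 encodes 5-lipoxygenase. The caffeine+ arrays gave log2 values of 6.72, 6.63 and 6.87, against 7.74, 7.51 and 7.45 in the caffeine- arrays. All 3 caffeine+ arrays were below the lowest caffeine- array by more than the spread within either group. Alox5 was 1.77-fold lower in caffeine+ cells (log2 difference -0.83 ± 0.10, limma adjusted p = 7.4e-06). The span of Gm38880 overlaps that of Alox5 in the reference annotation.

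Alox5ap encodes the 5-lipoxygenase activating protein, a membrane protein that presents arachidonic acid to 5-lipoxygenase. On the caffeine+ arrays it read 11.13, 11.07 and 11.03 (log2), against 11.45, 11.46 and 11.35 on the caffeine- arrays. The difference was small and the arrays were tight, with a spread of 0.10 in caffeine+ and 0.12 in caffeine- cells. Alox5ap was 1.27-fold lower in caffeine+ cells (log2 difference -0.34 ± 0.05, limma adjusted p = 5.6e-05).

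Lta4h encodes leukotriene A4 hydrolase, which makes leukotriene B4 and is also an aminopeptidase found in many cell types. Its log2 level was 9.54, 9.63 and 9.52 in the caffeine+ arrays, against 9.15, 8.91 and 8.67 in the caffeine- arrays. The caffeine+ arrays lay close together and the caffeine- arrays spread over 0.48. Lta4h was 1.57-fold higher in caffeine+ cells (log2 difference 0.65 ± 0.10, limma adjusted p = 4.5e-05).

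The remaining lipid enzymes of the list gave low values that overlapped between groups. Ltc4s, the gene of leukotriene C4 synthase, had a log2 level of 6.23, 6.37 and 6.41 in the caffeine+ arrays, against 6.39, 6.41 and 6.15 in the caffeine- arrays. It was below the array's own median on all 6 arrays. The log2 difference was 0.02 ± 0.11 with a 95% interval of -0.21 to 0.25 (limma adjusted p = 0.93). Alox15, the gene of the 12/15-lipoxygenase of mouse macrophages and eosinophils, had a log2 level of 6.25, 6.32 and 6.42 in the caffeine+ arrays, against 6.39, 6.25 and 6.74 in the caffeine- arrays. It was below the array's own median on 5 of 6 arrays, and its highest value came from caffeine- array 3. The log2 difference was -0.13 ± 0.12 with a 95% interval of -0.39 to 0.14 (limma adjusted p = 0.5). Differences of such dim probe sets understate a change, so these intervals bound the signal measured and not the change of the mRNA.

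The upstream sequences of the 2 genes that rose and of Alox5, the gene with the second largest fall, are printed to show which of 3 common promoter motifs they hold. The window of Hpgds in the same table starts inside the gene's annotated span and is not printed. Each line gives 250 bases before the start site and 30 after it, 5′ to 3′ on the gene's strand, from RefSeq on GRCm38.p6. Capitals mark matches to the cyclic AMP response element half-site TGACG, the E-box CACGTG and the GC box GGGCGG, searched on both strands. The windows are chr1:150099781-150100060 (plus strand), chr10:93453146-93453425 (plus strand) and chr6:116461149-116461428 (minus strand).
Ptgs2: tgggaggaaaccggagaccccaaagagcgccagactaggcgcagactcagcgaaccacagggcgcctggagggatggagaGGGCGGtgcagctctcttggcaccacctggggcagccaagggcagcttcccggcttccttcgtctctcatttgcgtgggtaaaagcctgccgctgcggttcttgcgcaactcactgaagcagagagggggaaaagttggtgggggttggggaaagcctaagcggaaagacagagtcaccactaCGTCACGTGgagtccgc
Lta4h: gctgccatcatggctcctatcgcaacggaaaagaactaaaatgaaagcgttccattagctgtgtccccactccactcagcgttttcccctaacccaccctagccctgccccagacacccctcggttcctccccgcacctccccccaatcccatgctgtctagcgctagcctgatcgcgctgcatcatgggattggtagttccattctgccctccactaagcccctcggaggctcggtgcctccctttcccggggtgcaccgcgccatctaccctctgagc
Alox5: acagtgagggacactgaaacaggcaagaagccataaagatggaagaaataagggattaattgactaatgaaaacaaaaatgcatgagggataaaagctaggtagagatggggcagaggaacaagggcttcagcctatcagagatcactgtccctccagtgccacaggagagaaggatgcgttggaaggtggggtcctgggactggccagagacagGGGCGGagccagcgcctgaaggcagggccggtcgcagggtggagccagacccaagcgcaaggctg

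The Ptgs2 window held 1 match of each motif. Its half-site, on the opposite strand at positions 14 to 18, shares 2 bases with the E-box at positions 17 to 22. The GC box lies at -170 to -165. Positions count from 1 at the annotated start site, and the start that these cells use was not measured. Among 32851 promoter windows of the same length, 19.9% held the half-site, 6.79% the E-box and 34.7% the GC box. The Alox5 window held a GC box at -35 to -30 and neither other motif, and the Lta4h window held none of the 3. Promoter windows were found for 7 of the 9 genes, counting that of Hpgds, which starts inside the gene's annotated span. Besides those of Ptgs2 and Alox5, the one with a match was that of Ptges, which held 2 GC boxes. A match is a description of letters, and transcription was blocked in both groups during the last 4 hours.

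Within groups the arrays did not rank alike for the 9 genes. In the caffeine- cells array 3 was the lowest of its group in 7 of the 9 genes, as it was in 36.4% of all genes, and array 1 was the highest in 5, as it was in 44.9% of all genes. In the caffeine+ cells array 3 was the lowest in 5 of the 9 and the highest in the other 4, with 31.5% and 41.1% over all genes. Leaving out any 1 array kept the direction of each of the 7 called genes and left each past the threshold.

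**Figure D2:**
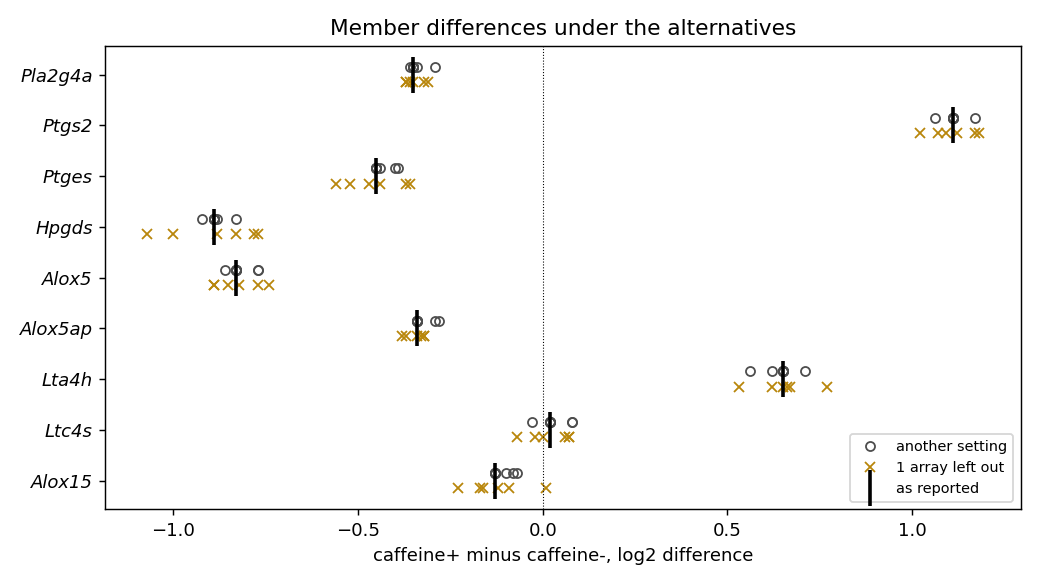
Log2 difference (caffeine+ minus caffeine-) of the 9 genes as reported (black bar), under each other setting (open circles) and with 1 array left out (crosses). The 7 called genes keep their side of 0 throughout, Hpgds has the widest range of them (-1.07 to -0.77), and Ltc4s and Alox15 lie near 0.

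Around these enzymes, 83 further genes of the pathway were listed in 9 roles, chosen with earlier results of these data known. Of the 74 measured, 8 rose and 19 fell in the caffeine+ cells, with a median difference of -0.09. Over all genes 16.2% rose and 21.7% fell, and the lists were not tested against these shares. The 55 genes followed under the alternatives were those of the naming rule, without Fcer1a, together with Hpgd, Acsl4 and Mapkapk2. Each of the 55 has a single probe set. The spans of 28 of these 55 overlap that of another annotated gene in GRCm38.p6, such as Gm38247 for Mgst2 and Hipk2 for Tbxas1, so their signal is less certain in its gene.

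Enzymes that inactivate prostaglandins and leukotriene B4 held the largest fall of the pathway genes. They were listed under prostanoid clearance together with transporters, and of the 5 genes of that list 2 fell and 1 rose. By the same rule 21.7% of all genes fell and 16.2% rose. Ptgr2 encodes a reductase of 15-keto-prostaglandins. The caffeine+ arrays gave log2 values of 7.22, 7.07 and 6.91, against 9.23, 9.13 and 9.07 in the caffeine- arrays. It was 4.21-fold lower (log2 difference -2.08 ± 0.09, limma adjusted p = 1.6e-10), more than any of the 9 synthesis genes changed. Ptgr1 encodes a reductase that inactivates leukotriene B4 as well as 15-keto-prostaglandins. On the caffeine+ arrays it read 6.97, 7.03 and 7.24 (log2), against 8.39, 8.47 and 8.25 on the caffeine- arrays, 2.44-fold lower (log2 difference -1.29 ± 0.10, limma adjusted p = 3.1e-08). Abcc4, an exporter of prostaglandins, was 1.43-fold higher in caffeine+ cells (log2 difference 0.52 ± 0.10, limma adjusted p = 0.0005), while Hpgd, the dehydrogenase that starts prostaglandin breakdown, was picked out after its value was seen and differed by -0.07 ± 0.11 (limma adjusted p = 0.71).

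The glutathione transferases of the membrane that are related to leukotriene C4 synthase all fell. Mgst2, whose product can also make leukotriene C4, had a log2 level of 8.49, 8.51 and 8.65 in the caffeine+ arrays, against 10.44, 10.31 and 10.46 in the caffeine- arrays. It was 3.61-fold lower in caffeine+ cells (log2 difference -1.85 ± 0.07, limma adjusted p = 5.2e-11). Mgst1 was 2.09-fold lower (log2 difference -1.07 ± 0.08) and Mgst3 1.74-fold lower (log2 difference -0.80 ± 0.12), with limma adjusted p = 1.8e-08 and 3.5e-05. Mgst3 was dim, below the array's own median on 3 of the 6 arrays. Abcc1, which exports leukotriene C4, differed by 1.24-fold upwards (log2 difference 0.31 ± 0.08, limma adjusted p = 0.0059). Over all genes 21.7% fell and 16.2% rose by the same rule. In the list of leukotriene conversion and clearance 3 of 10 measured genes fell, all of them these transferases, and 1 rose. The 6 that did not pass differed by -0.13 to 0.13.

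Acyl-CoA synthetases, and acyltransferases that load fatty acids onto phospholipids, went in both directions. Over all genes 21.7% fell and 16.2% rose, and the list was not tested against these shares. Of its 10 measured genes 4 fell and 1 rose, and the 5 that did not pass differed by -0.14 to 0.03. Lpcat3, the acyltransferase that favours polyunsaturated chains, had a log2 level of 7.36, 7.22 and 7.06 in the caffeine+ arrays, against 8.65, 8.54 and 8.39 in the caffeine- arrays. It was 2.49-fold lower in caffeine+ cells (log2 difference -1.31 ± 0.10, limma adjusted p = 3e-08), and its span overlaps that of Emg1 in the reference annotation. Lpcat2, which makes platelet-activating factor in inflammatory cells, went the other way. Its log2 level was 10.14, 10.18 and 10.08 in the caffeine+ arrays, against 9.44, 9.39 and 9.37 in the caffeine- arrays, 1.66-fold higher (log2 difference 0.73 ± 0.06, limma adjusted p = 1.1e-07). The span of Lpcat2 overlaps that of Capns2. Acsl5, a long-chain acyl-CoA synthetase gene, fell by 0.49 ± 0.07 and the acyltransferase gene Mboat1 by 0.46 ± 0.13 on the log2 scale (limma adjusted p = 2e-05 and 0.0073). Mboat1 was dim, below the array's own median on all 6 arrays. Acsl4, the synthetase that prefers arachidonic acid, was picked out after its value was seen and differed by -0.11 ± 0.07 (limma adjusted p = 0.25), and it passed after quantile normalization (limma adjusted p = 0.009) and without caffeine- array 3 (0.043).

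**Figure D3:**
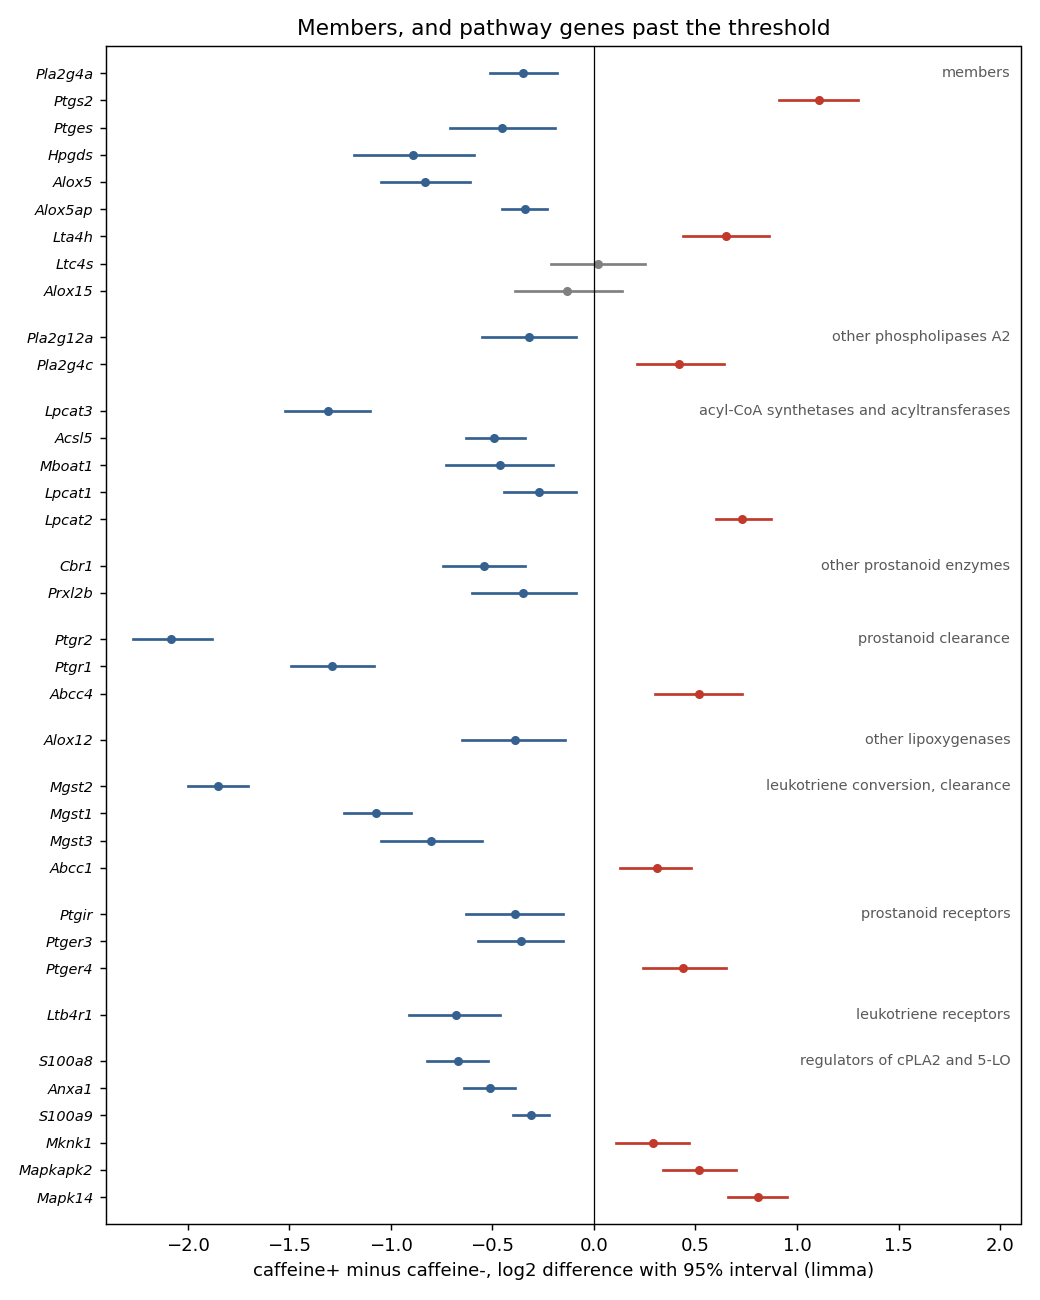
Log2 differences (caffeine+ minus caffeine-) with their 95% intervals from limma for the 9 measured synthesis genes, headed members, and for the pathway genes past the threshold, grouped by role; red is higher, blue lower and grey not past the threshold. The largest falls are Ptgr2 (-2.08) and Mgst2 (-1.85), and the largest rise is Ptgs2 (1.11).

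Other phospholipases A2, most of them secreted enzymes, mostly did not pass the test. Of 17 measured, 1 rose and 1 fell, where 16.2% of all genes rose and 21.7% fell by the same rule. Pla2g4c, a cytosolic relative of Pla2g4a, was 1.34-fold higher in caffeine+ cells (log2 difference 0.42 ± 0.10, limma adjusted p = 0.003). Pla2g12a, a secreted enzyme, was 1.25-fold lower (log2 difference -0.32 ± 0.11, limma adjusted p = 0.026), a call lost without caffeine+ array 2 (limma adjusted p = 0.12), caffeine- array 1 (0.11) or caffeine- array 3 (0.065). Of 7 other enzymes that make or convert prostanoids, 2 fell and none rose. Cbr1, a carbonyl reductase that can act on prostaglandin E2, was 1.45-fold lower (log2 difference -0.54 ± 0.10, limma adjusted p = 0.00023). Prxl2b, a prostaglandin F synthase gene, was 1.27-fold lower (log2 difference -0.35 ± 0.12, limma adjusted p = 0.03). That call did not survive leaving out any 1 of 4 arrays, caffeine+ 1 (limma adjusted p = 0.081) or 2 (0.091) and caffeine- 1 (0.16) or 3 (0.071). Prxl2b was dim, below the array's own median on 5 of 6 arrays. The thromboxane synthase gene Tbxas1 and the prostacyclin synthase gene Ptgis differed by -0.15 ± 0.10 and -0.23 ± 0.12 (limma adjusted p = 0.27 and 0.15). Ptgis passed without caffeine+ array 3 (limma adjusted p = 0.027). Among 5 other lipoxygenase genes Alox12, the platelet-type enzyme, fell by 0.39 ± 0.12 on the log2 scale (limma adjusted p = 0.015). It no longer passed without caffeine+ array 2 (limma adjusted p = 0.11) or caffeine- array 1 (0.062). Alox12 was also dim, below the array's own median on all 6 arrays.

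Most receptor genes for these lipids did not pass the test, and those that passed went in both directions. Of 9 prostanoid receptor genes, 1 rose and 2 fell. By the same rule 16.2% of all genes rose and 21.7% fell, and the receptor counts were not tested against these shares. Ptger4 encodes the EP4 receptor, through which prostaglandin E2 raises cyclic AMP. The caffeine+ arrays gave log2 values of 7.99, 8.13 and 8.17, against 7.80, 7.50 and 7.66 in the caffeine- arrays, 1.36-fold higher (log2 difference 0.44 ± 0.09, limma adjusted p = 0.0012). Ptger3, the gene of the EP3 receptor, and Ptgir, that of the prostacyclin receptor, fell by 0.36 ± 0.10 and 0.39 ± 0.11 on the log2 scale (limma adjusted p = 0.0078 and 0.01). The call of Ptgir was lost without caffeine+ array 1 (limma adjusted p = 0.066) or caffeine- array 1 (0.056). Ptgir lay below the array's own median on all 6 arrays, and Ptger3 on 4 of them. Of 4 measured receptors of leukotrienes and related lipids, 1 fell and none rose. Ltb4r1 encodes BLT1, the high-affinity leukotriene B4 receptor of neutrophils. On the caffeine+ arrays it read 6.55, 6.34 and 6.67 (log2), against 7.15, 7.18 and 7.28 on the caffeine- arrays, 1.61-fold lower (log2 difference -0.68 ± 0.10, limma adjusted p = 5.9e-05). Cysltr1 and Cysltr2, the receptors of the cysteinyl leukotrienes, differed by 0.07 ± 0.11 and 0.02 ± 0.11 (limma adjusted p = 0.7 and 0.94).

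Proteins that bind or phosphorylate cytosolic phospholipase A2 or 5-lipoxygenase, or carry arachidonic acid, split by kind. Of 7 measured genes 3 rose, all of them kinases, and 3 fell, all of them calcium-binding proteins. By the same rule 16.2% of all genes rose and 21.7% fell. Mapk14, the gene of p38 alpha, was 1.75-fold higher in caffeine+ cells (log2 difference 0.81 ± 0.07) and Mapkapk2, whose product phosphorylates 5-lipoxygenase, 1.43-fold higher (log2 difference 0.52 ± 0.08), with limma adjusted p = 9.7e-08 and 8.2e-05. Mapkapk2 was picked out after its value was seen. S100a8 and S100a9, whose proteins bind arachidonic acid in neutrophils, are also 2 of the 12 neutrophil markers and were 1.59-fold and 1.24-fold lower (limma adjusted p = 9.9e-07 and 1.5e-05). Anxa1, the gene of annexin A1, was 1.43-fold lower (log2 difference -0.51 ± 0.06, limma adjusted p = 2e-06).

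**Figure D4:**
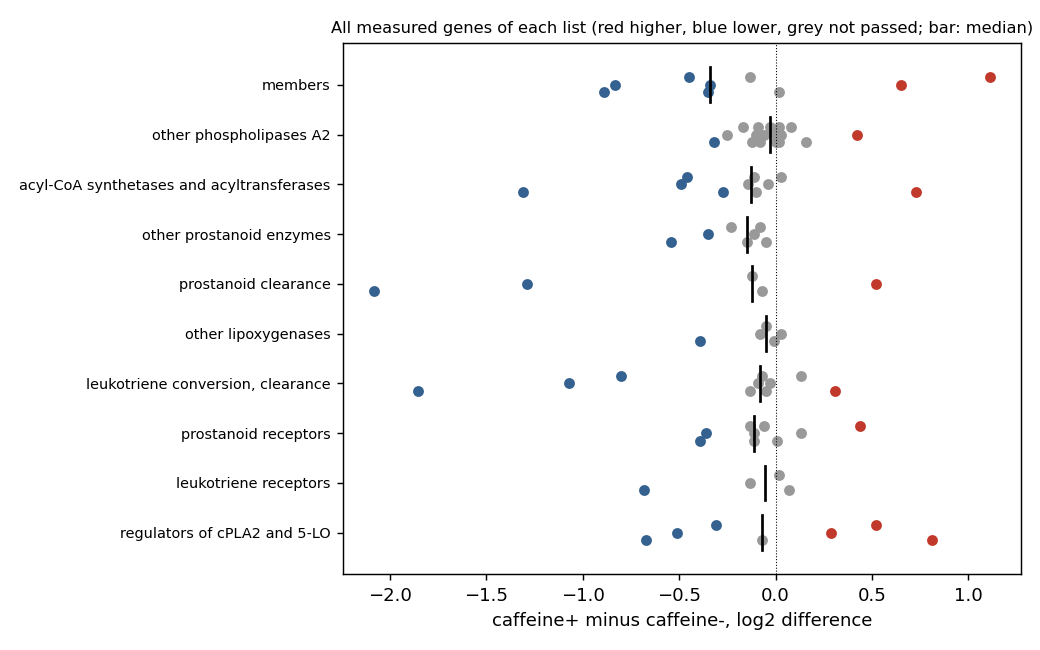
Log2 difference (caffeine+ minus caffeine-) of every measured gene in the 9 synthesis genes, headed members, and in each of the 9 pathway lists; red points are higher, blue lower and grey not past the threshold, the black bar is the list's median, and points are spread vertically for legibility only. The synthesis genes have a median of -0.34, and the pathway lists have medians between -0.15 and -0.03.

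Markers of cell types that could carry these enzymes were counted by the same rule, by which 16.2% of all genes rose and 21.7% fell. All 12 neutrophil markers fell, with a median difference of -0.62, and their summed level was 13.99 to 14.04 in caffeine+ cells and 14.55 to 14.62 in caffeine- cells. For monocytes and macrophages 7 of 11 measured markers fell and 1 rose, at a summed level of 12.41 to 12.47 in caffeine+ cells and 12.73 to 12.82 in caffeine- cells. The megakaryocyte and platelet markers, a cell type rich in Alox12 and Tbxas1, had 1 of 5 fall, with summed levels of 8.99 to 9.04 in caffeine+ cells and 9.17 to 9.31 in caffeine- cells. Of 8 measured lymphocyte markers 2 fell, and of 4 measured erythroid markers 1 fell. For megakaryocytes, lymphocytes and erythroid cells these shares lay near the 21.7% of all genes and are not read as a difference. The part of these markers in the differences of the synthesis genes was not tested.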

How the data were processed

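Each of the 6 arrays (Affymetrix Mouse Gene 1.0 ST, 3 per group) had 300 ng of Trizol-extracted total RNA, per the labels' protocols. The authors deposited 1 table of 34760 probe sets. The authors' deposited values were taken as log2 from their range alone. How probe sets were summarized, background-corrected and normalised is not stated in the labels or file header, and neither scanner files nor detection p-values were used. The number of arrays limits the precision.

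The platform annotation gave 21640 probe sets 1 gene symbol and 1321 several, and 11799 are not listed. Symbols were updated by gene identifier (21553 matched) in the RefSeq table of GRCm38.p6. The brightest probe set by mean over all arrays stood for a gene, which left 19937. The array's build is not stated, so genome coordinates are given for promoter windows only.

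The test was limma's (version 3.58.1, R 4.3.3; eBayes with an intensity trend), two-sided, checked on simulated data. The members and lists were chosen with earlier results of these data known. Named are the members, up to 4 genes of each pathway list with the smallest p, those changed at least 2-fold, and markers; any other is marked. The alternatives were the replicate number as a block, 2 normalizations, 2 filters, 2 uses of probe sets, 2 variance priors, array weights and leaving out each array.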

Additional observations from a re-analysis of the deposited data

How the results depend on the processing

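All 7 called synthesis genes kept their direction and passed under each alternative that held them; Ptges (adjusted p up to 0.044) came nearest to the threshold. Their count stayed 7 (2 higher, 5 lower) except among genes above the median level, where 6 of the 6 that remained passed, without Ptges. With the replicate number as a block it was 7 (8048 of all genes, against 7554 without it). Same-numbered arrays deviated together at r = -0.03, 0.19 and 0.29, so the numbers were not taken to pair them. Among the 55 genes followed under the alternatives, the block changed the call of Pla2g10 alone (limma adjusted p = 0.045, against 0.061 without it).

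Several small counts moved. Other phospholipases A2 went to 1 called after quantile normalization and with every probe set tested (2 as reported), and to 3 with the block and among genes above the 25th percentile or the median level, where Pla2g10 passed (adjusted p = 0.045, 0.044 and 0.035), and lay between 1 and 2 with 1 array left out. Other prostanoid enzymes went to 1 with every probe set tested and among genes above the median level, which kept 3 of 7, and lay between 1 and 3 with 1 array left out. Other lipoxygenases went to 0 with every probe set tested (Alox12 adjusted p = 0.057) and above the median level, which kept none, and lay between 0 and 1 with 1 array left out. Prostanoid receptors went to 1 above the median level, which kept 3 of 9. Pla2g12a lost its call after quantile normalization (limma adjusted p = 0.056) and with every probe set tested (0.071). With every probe set tested Prxl2b lost its call as well (limma adjusted p = 0.089). Why these genes crossed the threshold was not tested.

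Genes near 0 changed sign, none of them called. After quantile normalization Cysltr2 was at -0.02, with array weights Cysltr2 was at -0.04 and Ltc4s at -0.03, and with centred arrays Alox8 was at 0.00. With 1 array left out the differences ran from -0.07 to 0.07 for Ltc4s, -0.23 to 0.01 for Alox15, -0.12 to 0.03 for Alox8, -0.03 to 0.08 for Alox12b, -0.01 to 0.13 for Cysltr1 and -0.06 to 0.09 for Cysltr2. Of 855 values of those 55 genes under 16 alternatives, 817 kept direction and call. Cpa3 passed after quantile normalization (adjusted p = 0.0017). All adjusted p are limma's.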
